A study of Homo sapiens with 14 samples.

Results

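Autophagy encloses parts of the cytoplasm in a membrane and carries them to the lysosome, where hydrolases break them down. The genes described here are 42 genes of this route, chosen by name: the ATG8 family, the kinase and lipid kinase complexes that start the process, the proteins that supply and conjugate membrane, the cargo receptors, and lysosomal proteins and their regulators. Probes were assigned to them through the RefSeq accession that the array design gives. Of the 42 genes, 41 had such a probe, among 20992 genes named on the arrays. NBR1, a cargo receptor, had none.

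The series compares 2 established human glioblastoma lines, A172 and U87-MG, after knockdown of the long noncoding RNA LINC00152. Cells cultured in DMEM were electroporated with siLINC00152 #1, which targets exon 1 of that RNA, or with a negative control siRNA. Total RNA was labelled with Cy3 and put on 14 Agilent 1-colour arrays, with 3 arrays in each A172 group and 4 in each U87-MG group. The labels give 40 h of treatment, whereas the article names a later time. The groups are therefore A172 control, A172 siLINC00152, U87-MG control and U87-MG siLINC00152, each with sets numbered from 1. Both are established lines in culture, without the other cells of a tumour. The knockdown on these arrays rests on siLINC00152 #1 alone, and its sequence of 25 bases is shown because every comparison depends on it.
siLINC00152 #1: tgcctgtcttcagatcttcacagca

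In autophagy, the ULK1 kinase complex and a lipid kinase complex built around BECN1 mark the site where a membrane sac grows. ATG9A vesicles and ATG2 proteins feed that sac with lipid, and a conjugation machinery with ATG5 attaches ATG8 proteins such as MAP1LC3B to it, where they hold cargo receptors such as SQSTM1. The finished autophagosome fuses with a lysosome, and the transcription factor TFEB raises the expression of many genes of both organelles. Glioblastoma cells are often studied for how autophagy helps them through stress and treatment.

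Levels are given here as the log2 of a probe's processed signal minus the log2 of its array's 75th percentile, called the relative level. A difference of 1 on this scale is a factor of 2. Relative levels of different probes were not compared, because probes differ in how brightly they bind. The share of spots well above background, as the scanner software called it, ran from 57.3% to 69.0% over the A172 arrays and from 35.7% to 48.3% over the U87-MG arrays, with the lowest in U87-MG control set 3. The 3 A172 sets lie on 3 slides and all U87-MG arrays on another slide, so levels of the lines cannot be told apart from the slides. Within a line, arrays of the same set number are the pair that the differences below refer to. The number of arrays, 3 or 4 per group, limits the precision.

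The probe for LINC00152, whose current RefSeq symbol is CYTOR, had relative levels of 2.63, 2.44 and 2.48 in A172 control sets 1 to 3 and 0.23, -0.42 and -0.10 in the siLINC00152 sets. Every knockdown array lay below every control array. The difference was -2.61 (SE 0.24, limma adjusted p 0.000731, lower in 3 of 3 pairs), which left 16.3% of the control signal. In U87-MG the control sets 1 to 4 had 1.94, 1.83, 1.71 and 1.82 and the siLINC00152 sets -1.21, -0.88, -0.74 and -0.79. These groups did not overlap either. The difference was -2.73 (SE 0.21, limma adjusted p 4.96e-05, lower in 4 of 4 pairs), which left 15.1% of the control signal.

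MIR4435-2HG, a closely related transcript that the study calls MIR4435-1HG, has 3 probes. The probe with the largest difference had 3.14, 3.15 and 3.33 in A172 control and 0.77, 0.54 and 1.01 in A172 siLINC00152 arrays. In U87-MG it had 1.76, 2.01, 2.43 and 1.87 in control and -1.15, -1.33, -0.40 and -0.92 in siLINC00152 arrays. All knockdown arrays of both lines were below the controls, with differences of -2.44 in A172 (limma adjusted p 0.00339) and -2.97 in U87-MG (limma adjusted p 7.14e-05). Another probe had 2.23, 1.13 and 2.48 against 0.76, -0.58 and 1.07 in A172, and 0.86, 0.40, 1.46 and 0.99 against -1.71, -1.39, -0.26 and -1.26 in U87-MG. It was lower in every pair without overlap, with a difference of -1.53 in A172 (adjusted p 1, with sets as a block 0.0126) and -2.08 in U87-MG (adjusted p 0.316, with the block 0.00446), where the block is a limma fit that compares arrays within each set. The remaining probe differed by -0.31 in both lines and was not called in either.

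The label of the lines was compared with marker genes. Of 9 glioma and mesenchymal markers, 8 were well above background on every A172 array, and GFAP on only some. On the U87-MG arrays 7 of the 9 were well above background throughout, while GFAP and SOX2 were so on no array. This call does not separate cell types: of 5 leukocyte markers 4 had a probe, and those 4 were also well above background on every A172 array, with 3 of the 4 on every U87-MG array and CD3E on some. Of 5 epithelial markers, 3 were above on every A172 array and 1 on every U87-MG array, with CDH1 on no array of either line and EPCAM on no U87-MG array. For 3 endothelial markers the counts were 3 in A172 and 2 in U87-MG (PECAM1 on none), for 3 neuronal markers 2 and 1, and for 3 oligodendrocyte markers 1 and 1. The lines are named below by their labels.

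A gene is represented by its tested probe with the highest mean over the 14 arrays, and testing a probe in a line required 3 or more arrays of either group on which it exceeded background clearly. In A172, 38 of the 41 genes were tested, without OPTN, ATG2B and UVRAG. CLN8 and CALCOCO2 passed through the control group alone. In U87-MG 34 genes were tested, without MAP1LC3C, CALCOCO2, OPTN, ULK2, CLN8, ATG2B and UVRAG, and RB1CC1 passed through the knockdown group alone. A difference is named called when limma's adjusted p over all tested probes of the line was under 0.2 and the absolute difference above 0.5.

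MAP1LC3C, CLN8 and EVA1A fell in A172, and no member was called in U87-MG. These are 3 of 38 tested members, where 0.191% of all 14691 tested genes of A172 were called. CLN8 was tested only because its control arrays were above background, so a low value after the knockdown was favoured. The members were also chosen with earlier results of these data known, so the count is a description beside that share. With no filter on dim probes limma called the same 3, of 41 members. In U87-MG, limma called 0 of 34 members, against 0.0494% of 12137 tested genes, and 0 members had an unadjusted p under 0.05, beside 2.39% of all tested genes. With the block, 4 of 38 members were called in A172, all lower, where 3.98% of all tested genes were called and 2.57% were called lower. An unadjusted p under 0.05 in that fit was found for 9 of 38 members (23.7%, beside 13.1% of all tested genes). The block called 0 of 34 members in U87-MG, where it called 4.47% of all tested genes, and 6 members had an unadjusted p under 0.05 in that fit (17.6%, beside 18.1% of all tested genes).

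**Figure D1:**
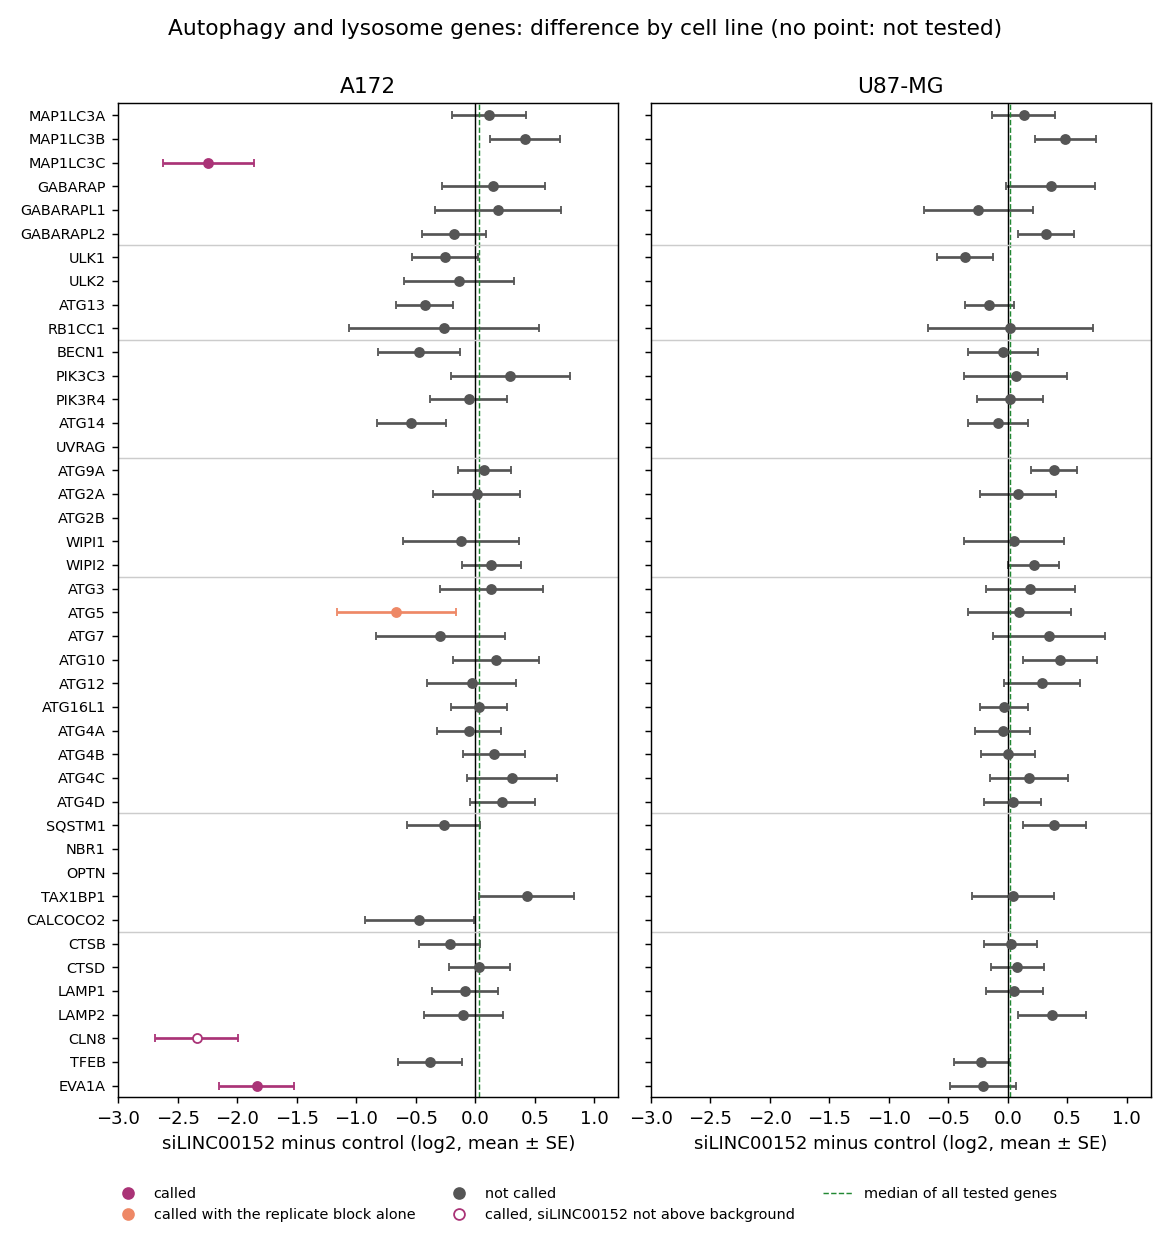
Difference between siLINC00152 and control (log2, mean and SE from limma) for each member in A172 and U87-MG, grouped by role with gray lines, where a gene without a point was not tested. MAP1LC3C, CLN8 (open circle, not above background after the knockdown) and EVA1A lie far to the left in A172, and the U87-MG differences lie between -0.36 and 0.49.

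The differences of the A172 members that were not called ran from -0.66 for ATG5 to 0.43 for TAX1BP1. The median absolute difference was 0.20 over the tested A172 members and 0.15 over all tested genes, and 0.14 and 0.17 in U87-MG. The median difference of the 38 tested members was -0.071 in A172, where the median of all tested genes was 0.029, and 22 members were lower and 16 higher, while 55.9% of all tested genes were higher. In U87-MG the median of the 34 tested members was 0.060 beside 0.017 for all tested genes, and 25 members were higher and 9 lower, while 52.5% of all tested genes were higher. Without control set 3, 16 of the 34 were higher. Leaving out arrays or sets moved the A172 median between -0.12 and -0.015, and the U87-MG median from -0.020, without control set 3, which is the dimmest array, to 0.14, without siLINC00152 set 3. The median within a set ran from -0.17 in A172 set 1 to 0.21 in U87-MG set 3.

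**Figure D2:**
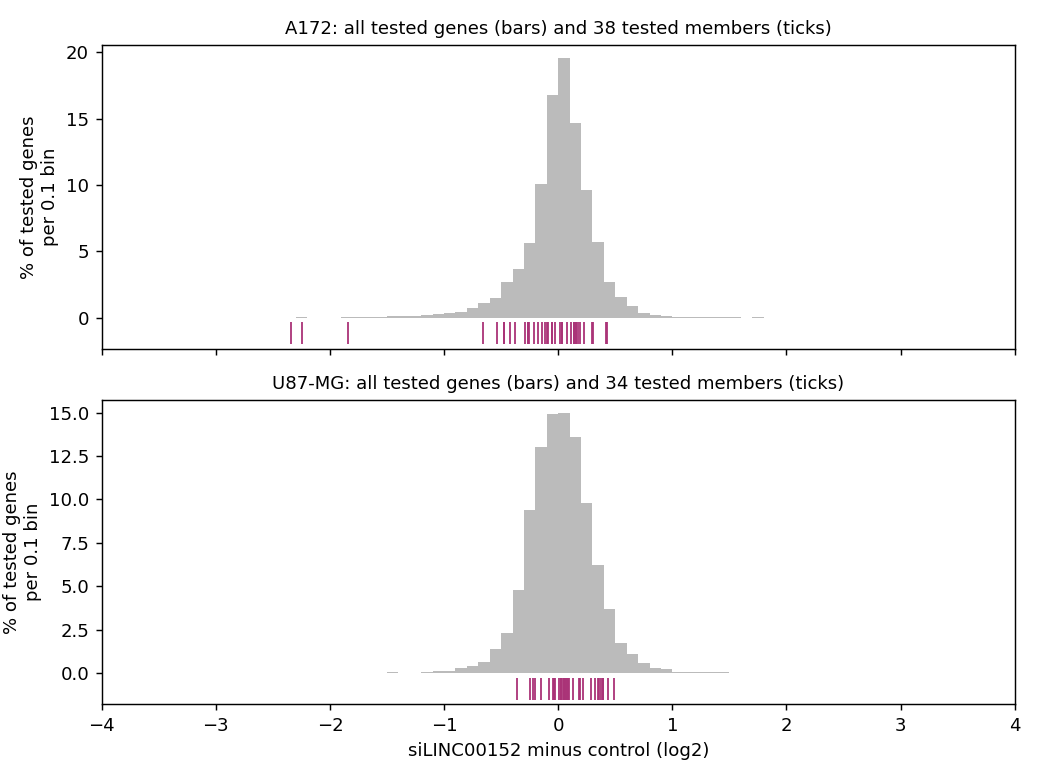
Histogram of the difference between siLINC00152 and control (log2) over all tested genes, as a percentage of genes per bin of 0.1, with a tick for each tested member under the bars. In A172 the ticks of CLN8, MAP1LC3C and EVA1A stand apart in the thin left tail, and in U87-MG all ticks lie within the bulk of the bars.

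Counting pairs gives a finer view of direction. In A172, 17 of 38 members, CLN8 and CALCOCO2 among them, were lower in every pair, against 17.5% of all tested genes, and 8 were higher in every pair, against 22.3%. CLN8, EVA1A, MAP1LC3C, ATG13, ATG14 and TFEB, 6 of 38 members, had groups that did not overlap, a pattern found in 8.35% of tested genes. CLN8 and CALCOCO2 were tested through their control arrays alone, so a lower value after the knockdown was favoured for both. In U87-MG, 9 of 34 members were higher in every pair (20.5% of all tested genes), and TFEB and EVA1A were the 2 lower in every pair (13.0%). ATG9A was the 1 member of U87-MG whose groups did not overlap, beside 3.29% of tested genes.

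ATG8 proteins are coupled to lipid on the growing sac and recruit cargo. MAP1LC3C, the family member with a part in clearing bacteria through CALCOCO2, had relative levels of -1.08, -0.20 and 0.23 in A172 control sets 1 to 3 and -2.93, -2.48 and -2.38 in siLINC00152 sets 1 to 3. Control set 1 was the lowest control, yet every knockdown array lay below it, and the groups did not overlap. The fall was -2.25 (SE 0.38, 95% interval -3.06 to -1.43, limma adjusted p 0.0424, lower in 3 of 3 pairs). With the block the adjusted p was 0.00648. Normexp background correction on median signal together with quantile normalization, named normexp below, gave a difference of -0.85. The call was lost when each line was fitted alone (adjusted p 0.264), without siLINC00152 set 1 (0.216), without control set 3 (0.309), and without both arrays of set 2 (0.527) or set 3 (0.850). With arrays or sets left out the difference stayed between -2.61 and -1.96, and with the block MAP1LC3C was called without each set (adjusted p 0.0373 to 0.0740). On the U87-MG arrays MAP1LC3C was never well above background, so no difference is given there. In bulk RNA, fewer cells with a transcript and less of it per cell cannot be told apart.

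MAP1LC3B, the ATG8 protein most used to count autophagosomes, had 1.71, 1.89 and 1.47 in A172 control and 1.83, 2.45 and 2.03 in A172 siLINC00152 arrays. Each knockdown array was above the control of its set, but the groups overlapped. The difference of 0.42 (SE 0.29) was not called, with a limma adjusted p of 0.319 under the block. In U87-MG, MAP1LC3B had 2.00, 2.01, 1.41 and 2.43 in control and 2.32, 2.50, 2.18 and 2.79 in siLINC00152 arrays. All 4 pairs were again higher after the knockdown, with overlapping groups because control set 4 lay above knockdown sets 1 and 3. The U87-MG difference was 0.49 (SE 0.25), and the block gave an adjusted p of 0.138 while the size stayed under the threshold of 0.5.

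GABARAPL1, of the other branch of the family, had 1.90, 2.45 and 1.66 in A172 control and 2.66, 2.28 and 1.66 in A172 siLINC00152 arrays. Set 1 was higher, set 2 lower and set 3 about level, a difference of 0.19 (SE 0.53). Its other tested A172 probe was higher in 3 of 3 pairs, by 0.49, and not called (block adjusted p 0.268). U87-MG gave 3.54, 3.74, 5.42 and 3.01 in control and 3.62, 3.57, 4.48 and 3.05 in knockdown arrays, where set 3 was high in both groups. That difference was -0.25 (SE 0.46), and the other probe was higher by 0.36. Of the 6 tested ATG8 genes in A172, 4 were higher and 2 lower, and of 5 in U87-MG 4 were higher and GABARAPL1 alone was lower, also under each of the 3 other scalings. Its U87-MG difference was -0.016 without set 3 and 0.25 without control set 3.

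The initiation complex joins the kinases ULK1 or ULK2 with ATG13 and the scaffold RB1CC1. ULK1 had 1.53, 0.99 and 1.14 in A172 control and 1.01, 0.95 and 0.94 in A172 siLINC00152 arrays. Set 1 held most of the gap, and the knockdown array of that set overlapped the controls. The difference was -0.25 (SE 0.27). In U87-MG the values were 0.90, 0.75, -0.088 and 0.61 in control and 0.34, 0.20, 0.15 and 0.054 in knockdown arrays. Sets 1, 2 and 4 were lower after the knockdown and set 3, with the low control, was higher. The difference was -0.36 (SE 0.24, block adjusted p 0.319), and without set 3 the block called it at -0.55 (adjusted p 0.118).

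ATG13, which tethers the kinases to RB1CC1, has probes of 2 RefSeq transcripts. Its brighter probe had 0.71, 1.04 and 0.85 in A172 control and 0.16, 0.69 and 0.46 in A172 siLINC00152 arrays. Every knockdown array was below every control. The difference of -0.43 (SE 0.24) was not called, with a block adjusted p of 0.237. In U87-MG this probe had 1.17, 1.12, 0.60 and 0.87 in control and 0.81, 0.88, 0.72 and 0.74 in knockdown arrays, with set 3 higher and the other sets lower, a difference of -0.15.

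The other ATG13 probe had 0.68, 1.10 and 0.77 in A172 control and -0.23, 0.030 and -0.30 in A172 siLINC00152 arrays. The groups did not overlap and the pairs were alike. The difference was -1.02 (SE 0.27), not called without the block (limma adjusted p 0.497) and called with it (0.0126), and after normexp it was called without the block as well (-0.68, adjusted p 0.185). In U87-MG it had 1.10, 1.24, 0.52 and 1.27 in control and 0.43, 0.53, -0.018 and 0.34 in knockdown arrays. All 4 pairs were lower, while control set 3 lay among the knockdown values, at a difference of -0.71 (SE 0.23). With the block this was called in U87-MG too (adjusted p 0.0404, against 0.9999 without it), and that call was lost without set 2 and after normexp (-0.43). Whether the 2 probes differ was not tested. All 4 tested genes of the complex were lower in A172, under each of the 4 scalings.

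The lipid kinase PIK3C3, with PIK3R4, BECN1 and ATG14 or UVRAG, makes the phosphoinositide that marks the sac. BECN1, the scaffold, had 1.79, 0.97 and 1.31 in A172 control and 1.23, 0.58 and 0.84 in A172 siLINC00152 arrays. Each set was lower after the knockdown, but sets differed more than arms, so the groups overlapped. The difference was -0.47 (SE 0.34, block adjusted p 0.446). In U87-MG, BECN1 had 1.97, 1.88, 0.90 and 2.21 in control and 1.64, 1.60, 1.56 and 2.00 in knockdown arrays. Sets 1, 2 and 4 were lower and set 3 was higher, with a difference of -0.040 (SE 0.30), and -0.32 without control set 3. ATG14 had the lowest value of the complex in A172, -0.54, with groups that did not overlap, and -0.081 in U87-MG. PIK3C3 was higher in every A172 pair (0.30).

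Membrane reaches the sac on vesicles of ATG9A, a lipid scramblase, and through the lipid transfer proteins ATG2A and ATG2B, guided by WIPI1 and WIPI2. ATG9A had 1.77, 2.04 and 1.85 in A172 control and 1.96, 2.05 and 1.88 in A172 siLINC00152 arrays. Each pair was slightly higher and the groups overlapped, at a difference of 0.076 (SE 0.22). In U87-MG it had 2.34, 2.50, 2.10 and 2.45 in control and 2.60, 2.88, 2.60 and 2.88 in knockdown arrays. Every knockdown array was above every control. The difference of 0.39 (SE 0.19, block adjusted p 0.128, higher in 4 of 4 pairs) stayed under the threshold of 0.5. By the brightest tested probe of each gene, all 4 tested genes of this role were higher in U87-MG and 3 of 4 in A172. This held under each of the 4 scalings, with differences from -0.12 to 0.13 in A172. It depends on the probe, since the tested probes differed in sign for ATG2A and ATG9A in A172 and for WIPI2 in U87-MG.

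ATG5 is joined to ATG12 and, with ATG16L1, couples ATG8 proteins to lipid. It had -0.93, -2.09 and -1.36 in A172 control and -1.32, -2.82 and -2.22 in A172 siLINC00152 arrays. Each set was lower after the knockdown, with overlapping groups since set 2 was low in both. The difference was -0.66 (SE 0.50), not called without the block (limma adjusted p 1) and called with it (0.129). The call with the block was lost after another normalization, at an FDR of 0.05 and without any 1 set. Normexp took the difference to -0.195, and with arrays or sets left out it ran from -1.06 to -0.31. Its other probe differed by -0.35 and was not called (block adjusted p 0.451). In U87-MG, ATG5 had -0.47, -0.61, -1.47 and 0.29 in control and -0.54, -0.73, -1.01 and 0.41 in knockdown arrays. Sets 1 and 2 were lower, sets 3 and 4 higher, and the difference was 0.10 (SE 0.43), and -0.20 without control set 3. The other 9 tested genes, among them the ATG4 proteases that trim ATG8 proteins, ranged from -0.29 for ATG7 to 0.31 for ATG4C in A172, and from -0.042 for ATG4A to 0.44 for ATG10 in U87-MG.

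SQSTM1 binds ubiquitinated cargo and ATG8 proteins and is itself degraded by autophagy. Its relative levels were 5.21, 5.05 and 4.88 in A172 control and 5.19, 4.66 and 4.47 in A172 siLINC00152 arrays. All 3 pairs were lower, the pair of set 1 by little, and the groups overlapped. The difference was -0.27 (SE 0.31, block adjusted p 0.630). In U87-MG, SQSTM1 had 4.98, 4.82, 4.26 and 4.22 in control and 5.30, 5.16, 4.96 and 4.43 in knockdown arrays. All 4 pairs were higher, again with overlap. The difference was 0.39 (SE 0.27, block adjusted p 0.195). TAX1BP1, another receptor, was higher in every A172 pair (0.43) and differed by 0.047 in U87-MG. CALCOCO2, tested through its control arrays alone, was lower in every A172 pair (-0.47) near the background.

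CLN8 sits in the endoplasmic reticulum and helps newly made lysosomal enzymes leave it, and its loss causes a lysosomal storage disease of neurons. Its A172 control arrays had -2.82, -2.89 and -3.31 and its siLINC00152 arrays -5.03, -5.02 and -5.99. The controls were low but well above background on 3 of 3 arrays, the knockdown arrays on 0 of 3. The fitted difference was -2.34 (SE 0.35, limma adjusted p 0.0160, block adjusted p 0.00312). These values rest on knockdown signals at background and on a filter passed through the control group alone, and with no filter the adjusted p was 0.0355. Because the knockdown signal could not be told from background, the size is given as a bound, with dimmer arrays raised to the lowest signal called above background on them: CLN8 was at least 1.48-fold lower. With normexp the difference was -0.24 and not called, with or without the block, and the call was also lost with the line fitted alone (adjusted p 0.218) and without both arrays of set 2 (0.223) or set 3 (0.327). With the block CLN8 was called without each set (adjusted p 0.0361 to 0.0554). CLN8 was not well above background on any U87-MG array.

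EVA1A, a membrane protein of the endoplasmic reticulum and lysosome whose overexpression starts autophagy, had -0.081, -0.065 and 0.14 in A172 control and -1.35, -2.19 and -1.99 in A172 siLINC00152 arrays. The controls lay close together, and every knockdown array was well below them. EVA1A fell by 1.84 on the log2 scale (SE 0.32, limma adjusted p 0.0473, lower in 3 of 3 pairs, block adjusted p 0.00695). Normexp gave -0.83 (adjusted p 0.230) without the block, and called EVA1A with it. The call was lost with the line fitted alone (0.237), without control set 3 (0.309), siLINC00152 set 2 (0.357) or siLINC00152 set 3 (0.349), and without both arrays of set 2 (0.652) or set 3 (0.9999). With arrays or sets left out the difference stayed between -2.13 and -1.67, and with the block EVA1A was called without each set (adjusted p 0.0161 to 0.0825).

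A probe for another EVA1A transcript had -0.85, -1.09 and -1.47 in A172 control and -1.91, -2.41 and -2.91 in A172 siLINC00152 arrays. Again every knockdown array was below the controls. The difference of -1.28 (SE 0.53) was called with the block (adjusted p 0.00721) but not without it (1), and normexp took it to -0.38, under the threshold. In U87-MG the brighter probe had 2.28, 2.22, 3.03 and 2.50 in control and 2.11, 1.91, 2.88 and 2.30 in knockdown arrays. All 4 pairs were lower by a little, set 3 was high in both groups, and the groups overlapped. The difference was -0.21 (SE 0.28, block adjusted p 0.508), and -0.034 without control set 3. The plot of values by array shows these genes in both lines.

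**Figure D3:**
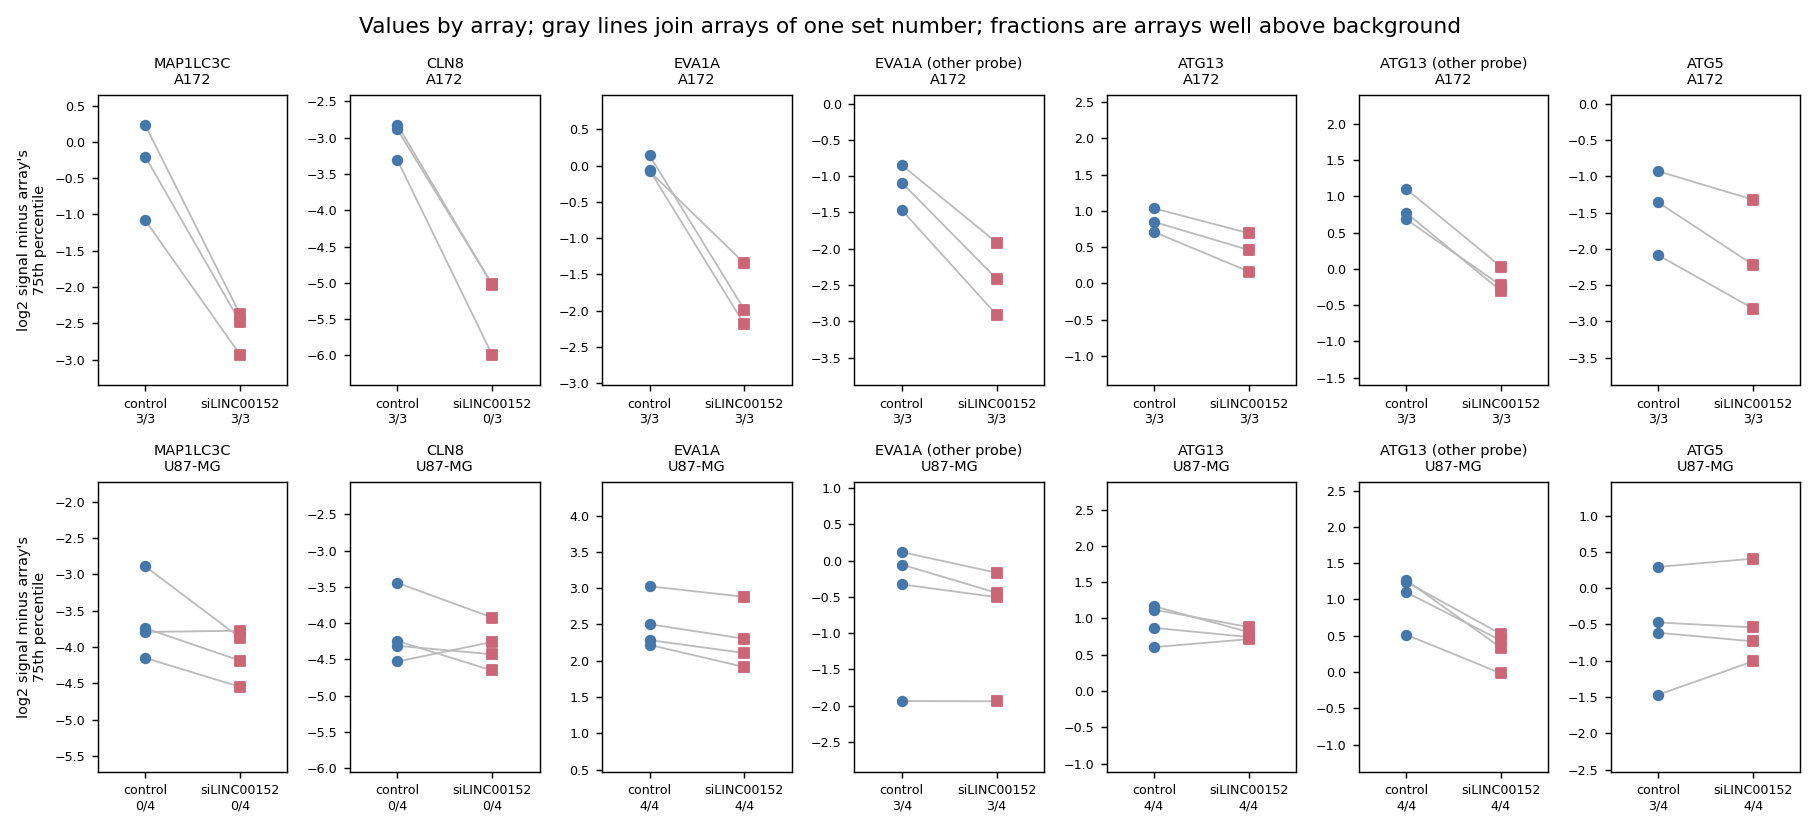
Relative level (log2 signal minus the array's 75th percentile) of the members and probes called in some fit, in control (blue circles) and siLINC00152 arrays (red squares) of A172 and U87-MG, with gray lines joining the arrays of a set and fractions giving the arrays well above background. In A172 every line slopes down, steeply for MAP1LC3C, CLN8 and EVA1A, and in U87-MG the lines are flatter, with ATG13's other probe the 1 called there, with the block.

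TFEB, the transcription factor of lysosomal and autophagy genes, had 4.55, 4.93 and 4.72 in A172 control and 4.34, 4.32 and 4.41 in A172 siLINC00152 arrays. Every knockdown array was below every control. The difference of -0.38 (SE 0.27, block adjusted p 0.282) was not called. In U87-MG, TFEB had 5.43, 5.31, 6.08 and 5.36 in control and 5.19, 5.22, 5.75 and 5.13 in knockdown arrays. Each pair was lower and set 3 was high in both groups. The difference was -0.22 (SE 0.23), and -0.042 without control set 3. The other tested TFEB probe differed by -0.049 in A172 and 0.013 in U87-MG.

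LAMP1, an abundant glycoprotein of the lysosomal membrane, had 5.17, 4.56 and 4.24 in A172 control and 4.83, 4.70 and 4.19 in A172 siLINC00152 arrays. The sets differed from each other more than the arms did, and the difference was -0.086 (SE 0.28). In U87-MG, LAMP1 had 3.87, 3.90, 3.57 and 3.89 in control and 3.96, 3.99, 3.74 and 3.75 in knockdown arrays. Sets 1 to 3 were slightly higher and set 4 lower, at 0.054 (SE 0.24), and at -0.026 without control set 3.

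CTSD, an aspartic protease inside the lysosome, had 2.54, 3.25 and 3.06 in A172 control and 2.67, 3.29 and 2.99 in A172 siLINC00152 arrays. Both groups spanned nearly the same range. The difference was 0.033 (SE 0.26, 95% interval -0.51 to 0.58). U87-MG gave 4.53, 4.68, 4.68 and 4.45 in control and 4.67, 4.86, 4.64 and 4.49 in knockdown arrays, with 3 of 4 pairs higher. The U87-MG difference was 0.081 (SE 0.22, 95% interval -0.39 to 0.56). LAMP2, the partner of LAMP1 in the lysosomal membrane, was higher in every U87-MG pair (0.37, block adjusted p 0.195) and lower in every A172 pair (-0.10), where another tested LAMP2 probe differed by 0.044.

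TFEB and its relatives bind the letters CACGTG, or TCACGTGA with flanking bases, near the start of lysosomal genes. Both motifs are their own reverse complement, so each was searched once for both strands, and the longer contains the shorter. RefSeq's promoter table for GRCh38.p14 held 35 of the 42 members in 46 windows of 250 bases before the start, without MAP1LC3A, RB1CC1, UVRAG, ATG4D, CTSB, LAMP2 and CLN8. CACGTG was in 4 of these windows (8.70%), those of ATG14, ATG3, CTSD and LAMP1, and in 6.34% of all 35116 windows. TCACGTGA was in the LAMP1 window alone (2.17% of the 46) and in 0.854% of all windows. Among the wider lists described below, CACGTG was in 6 of 28 windows of lysosomal hydrolases (21.4%), 3 of 13 of vacuolar ATPase subunits (23.1%), 9 of 41 of lysosomal membrane and sorting proteins (22.0%), 6 of 27 of mTORC1 signalling (22.2%) and 4 of 11 of fusion factors (36.4%). It was in 2 of 16 windows of transcription factors and of mitophagy and ER-phagy genes (12.5% each), and in 1 of 21 of further autophagy genes (4.76%). The windows of LAMP1 (chr13:113296989-113297238, plus strand) and CTSD (chr11:1763928-1764177, minus strand) are shown as lysosomal genes with the motif, and those of MAP1LC3C (chr1:241999099-241999348, minus strand) and EVA1A (chr2:75569720-75569969, minus strand, the most upstream of 3 starts) as the called genes in the table. Capitals mark CACGTG.
LAMP1: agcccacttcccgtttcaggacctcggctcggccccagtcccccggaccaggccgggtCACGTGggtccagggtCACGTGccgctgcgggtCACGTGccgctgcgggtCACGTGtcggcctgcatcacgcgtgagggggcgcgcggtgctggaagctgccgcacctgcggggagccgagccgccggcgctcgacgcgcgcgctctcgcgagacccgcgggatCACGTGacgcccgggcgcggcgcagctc
CTSD: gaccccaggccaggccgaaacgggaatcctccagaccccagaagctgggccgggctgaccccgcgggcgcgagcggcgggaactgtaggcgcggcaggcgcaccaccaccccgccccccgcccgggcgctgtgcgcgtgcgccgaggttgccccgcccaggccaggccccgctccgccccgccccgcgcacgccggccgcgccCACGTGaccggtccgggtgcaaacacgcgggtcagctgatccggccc
MAP1LC3C: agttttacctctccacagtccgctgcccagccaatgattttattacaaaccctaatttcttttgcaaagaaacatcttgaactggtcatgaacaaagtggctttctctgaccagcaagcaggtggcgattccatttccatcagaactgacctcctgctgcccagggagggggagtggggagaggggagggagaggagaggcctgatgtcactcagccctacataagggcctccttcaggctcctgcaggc
EVA1A: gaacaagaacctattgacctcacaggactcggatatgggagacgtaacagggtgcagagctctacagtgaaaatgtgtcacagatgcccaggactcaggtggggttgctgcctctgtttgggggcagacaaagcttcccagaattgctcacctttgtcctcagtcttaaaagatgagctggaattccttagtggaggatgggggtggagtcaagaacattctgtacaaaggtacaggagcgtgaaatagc
LAMP1 has 5 matches, the nearest 22 and the farthest 186 bases before the start, and CTSD has 1 match 41 bases before it. MAP1LC3C and EVA1A have 0 matches in these windows. Of the 4 members with the motif, LAMP1 differed by -0.086, CTSD by 0.033, ATG3 by 0.14 and ATG14 by -0.54 in A172, none of them called. A match is given as a description of the letters only.

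Whether the knockdown difference itself differed between the lines was tested as an interaction over the 34 members tested in both. Limma called 0 of 34 without the block, against 0.00847% of 11804 genes, and EVA1A was the 1 member with an unadjusted p under 0.05. With the block it called 1 of 34, against 0.491% of genes. That member was EVA1A: its A172 difference was lower than its U87-MG difference by 1.63 (SE 0.24, adjusted p 0.114), and by 1.07 on its other probe (SE 0.17, adjusted p 0.143). Without the block the adjusted p was 1 for both probes. The interaction of EVA1A was also not called with the block at an FDR of 0.05, or when A172 set 2 or set 3, or U87-MG set 1, 2 or 4, was left out. SQSTM1, lower in every A172 pair and higher in every U87-MG pair, had an interaction of -0.66 with a block adjusted p of 0.416, and was called with the block after normexp and quantile normalization. MAP1LC3C and CLN8 could not be tested this way, since their U87-MG signal was at background.

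Around these members, 8 further lists of the pathway held 161 genes, 160 with a probe: lysosomal hydrolases, vacuolar ATPase subunits, lysosomal membrane and sorting proteins, mTORC1 signalling, transcription factors, fusion factors, further autophagy genes, and mitophagy and ER-phagy genes. In A172 limma called 0 of 147 tested genes without the block, with 3 (ARSB, GM2A and TP53INP1) at an unadjusted p under 0.05 (2.04%, beside 2.67% of all tested genes), and 5 with the block. U87-MG gave 0 of 131 without the block, with 3 (CLN6, SORT1 and TP53INP1) at an unadjusted p under 0.05 (2.29%, beside 2.39% of all tested genes), and 5 with it. The block called 3.98% of all tested genes in A172 and 4.47% in U87-MG, so both counts of 5 were near the background. TP53INP1 was the 1 gene called with the block in both, and its U87-MG probe was tested through the knockdown group alone, where a high value was favoured.

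TP53INP1, a p53-induced protein that binds ATG8 proteins, had -1.35, -1.27 and -0.51 in A172 control and 0.56, -0.53 and 0.46 in A172 siLINC00152 arrays. Every pair was higher, with set 1 furthest, and knockdown set 2 overlapped the highest control. The difference was 1.21 (SE 0.36, limma adjusted p 0.807, with the block 0.0993), and its other probe gave 1.30 with no overlap (with the block 0.0170, and 0.257 with the block on the authors' values). Normexp took that probe to 0.74 and called it without the block too (adjusted p 0.0477). In U87-MG it had -1.26, -2.34, -2.02 and -1.61 in control and -0.38, -0.51, -0.23 and 0.013 in knockdown arrays. All knockdown arrays lay above the controls, of which 2 of 4 were well above background. The difference was 1.53 (SE 0.31, limma adjusted p 0.316, with no filter 0.688, with the block 0.0404). With the block the A172 call of this probe was lost when any 1 set was left out and the U87-MG call without set 2, and normexp took the differences to 0.63 and 0.71, both called.

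The other TP53INP1 probe was called in U87-MG without the block. It had -2.64, -2.36, -3.39 and -2.69 in control arrays, none well above background, and -0.72, -0.79, -1.44 and -1.00 in knockdown arrays, all well above it. The groups did not overlap. The fitted difference was 1.78 (limma adjusted p 0.0270). As a bound, again without an error and for the relative level alone, the mean of the probe was at least 1.89-fold higher. It passed the filter through the knockdown group alone, so a high value there was favoured, and with no filter the adjusted p was 0.0990. The call was lost with quantile normalization (2.24, adjusted p 0.303), with the authors' values (2.39, adjusted p 0.373), with the line fitted alone (0.208), and without both arrays of set 1 (0.719), set 2 (0.249) or set 4 (0.328). With arrays or sets left out the difference stayed between 1.58 and 1.93. With the block the probe was called (adjusted p 0.00720), also after quantile normalization (0.0411), on the authors' values (0.0556), after normexp (0.66, adjusted p 0.00186) and without each set (0.0277 to 0.0547).

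Of the other 4 A172 genes called with the block, 3 are described here, each lower or higher in every pair. ARSB, a lysosomal sulfatase of chondroitin and dermatan sulfate, had -0.22, 0.58 and 0.42 in control and 0.66, 1.39 and 1.43 in siLINC00152 arrays, with every knockdown array above the controls (0.90, adjusted p 1, with the block 0.0192). VMP1, a membrane protein needed to form autophagosomes, had 1.29, -0.24 and 0.78 in control and 0.32, -0.79 and 0.29 in siLINC00152 arrays, overlapping since set 2 was low in both (-0.67, adjusted p 1, with the block 0.0890). RETREG1, a receptor for autophagy of the endoplasmic reticulum, had -0.37, -1.93 and -1.07 in control and -1.50, -3.13 and -2.50 in siLINC00152 arrays, also overlapping with set 2 lowest (-1.26, adjusted p 1, with the block 0.0909). VMP1 and RETREG1 were not called with the block when any 1 set was left out, while ARSB was called without each. With arrays or sets left out and no block, VMP1 ran from -1.09 to -0.30, RETREG1 from -1.69 to -0.88 and ARSB from 0.66 to 1.15. After normexp with the block, ARSB was called and VMP1 and RETREG1 were not.

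In U87-MG the block called 4 more genes. DRAM1, a p53-induced lysosomal membrane protein, had -0.99, -1.17, -1.70 and -0.59 in control and -0.51, -0.45, -0.54 and -0.19 in knockdown arrays, with no overlap (0.69, adjusted p 0.9999, with the block 0.118). CTSL, a lysosomal cysteine protease, had 3.73, 3.78, 2.45 and 3.80 in control and 4.22, 4.26, 3.52 and 4.24 in knockdown arrays, with set 3 low in both groups (0.62, adjusted p 0.9999, with the block 0.105). These genes were higher in all 4 pairs. Without control set 3 the CTSL difference was 0.29. SORT1, a receptor that sorts enzymes to the lysosome, had 0.18, 0.33, 0.37 and 0.77 in control and 0.66, 0.91, 0.84 and 1.44 in knockdown arrays, where control set 4 overlapped the knockdown values (0.55, adjusted p 0.9999, with the block 0.0707). STX17, the SNARE protein through which autophagosomes fuse with lysosomes, had -0.43, -0.46, -0.066 and 0.055 in control and -0.90, -1.21, -0.30 and -0.64 in knockdown arrays, lower in all 4 pairs with overlap (-0.53, adjusted p 0.9999, with the block 0.135). With the block, leaving out set 1, 2 or 4 ended the calls of DRAM1, SORT1 and STX17, and leaving out any 1 set ended that of CTSL. On the authors' values with the block STX17 was not called (adjusted p 0.206). None of the 4 was called with the block after normexp. The differences were then 0.31 for DRAM1, 0.47 for CTSL, 0.36 for SORT1 and -0.23 for STX17, all under the threshold of 0.5. In that fit limma's adjusted p was 0.0517, 0.0273, 0.0218 and 0.152, in the same order. The plot of differences in each set shows these genes.

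**Figure D4:**
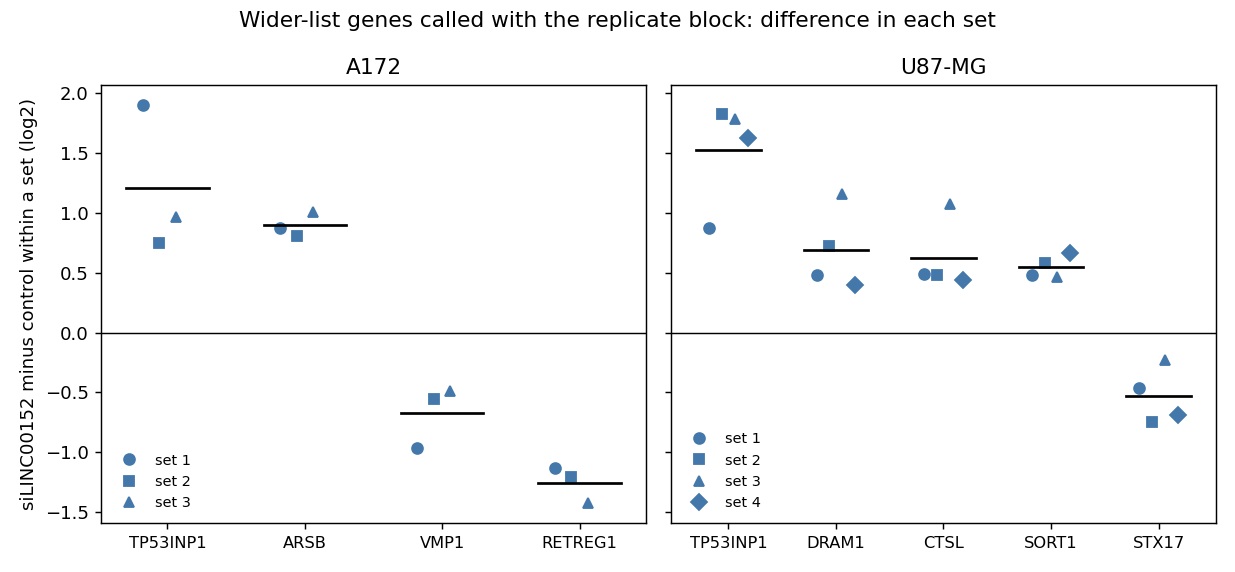
Difference between siLINC00152 and control within each set (log2) for genes of the wider lists that were called with the replicate block in A172 or U87-MG, with a marker per set and a black bar at the fitted difference. TP53INP1 is above 0 in every set of both lines, and no gene shown has sets on both sides of 0.

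Probes other than the brightest added 2 calls with the block in U87-MG. The other probe of PSAP, the precursor of the saposins that help break down sphingolipids, had 4.48, 4.52, 5.23 and 4.74 in control and 3.83, 3.89, 4.49 and 3.81 in knockdown arrays. All 4 pairs were lower, and set 3 of the knockdown arrays just overlapped the controls (-0.74, adjusted p 0.9999, with the block 0.0404), and the block called it without any 1 set as well. The other probe of MTMR3, a phosphatase of the phosphoinositide of the sac, had -0.52, -1.04, -0.38 and -1.19 in control and -0.76, -2.01, -0.74 and -2.03 in knockdown arrays. All 4 pairs were lower and the groups overlapped, since sets 2 and 4 were low in both (-0.60, adjusted p 0.9999, with the block 0.162), a call lost without set 1, 2 or 4, and with the block after quantile normalization (0.213), on the authors' values (0.227) and after normexp, where the difference was -0.15.

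Among the members with several tested probes, the probes differed in sign for ATG2A, ATG9A and LAMP2 of 12 such genes in A172, and for ATG16L1, ATG7, GABARAPL1, TFEB and WIPI2 of 12 in U87-MG.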

How the data were processed

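Each of the 14 arrays holds RNA of 1 sample. The authors deposited the scanner output, in which Feature Extraction 11.5.1.1 gives the intensity of every spot without normalization between arrays. The authors also deposited a table of log2 values, which has the same distribution on every array. Here the log2 processed signal of 58717 non-control spots was taken relative to their 75th percentile on the array and averaged by probe, without spots marked as non-uniform or population outliers. No spot was saturated. RefSeq's table for GRCh38.p14 named 29033 of 50599 probes. A probe was well above background on an array when at least 0.5 of its spots were. Limma 3.58.1 in R 4.3.3 fitted 4 group means (lmFit, eBayes), with Benjamini-Hochberg adjustment over all tested probes of a line, and the difference between the lines as an interaction. The replicate block added the set number of each line as a term.

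Deviations from group means correlated, across tested probes, at 0.675 to 0.794 between A172 arrays of a set and at -0.701 to -0.0436 between other sets. In U87-MG these were 0.373 to 0.864 and -0.772 to 0.411. Taking out the means of such small groups by itself pushes the values between different sets below 0. U87-MG control set 1 correlated at 0.373 with siLINC00152 set 1 and at 0.403 with siLINC00152 set 2. Alternatives were quantile normalization, normexp background correction (offset 50, on median signal since no mean signal was used) with quantile normalization, the authors' values, no or a stricter filter, marked spots kept, each line alone, eBayes with trend and robust, an FDR of 0.05, any probe of a gene, and leaving out each array or set. Fits were also run on simulated data, and no result given here rests on that. The members and lists were chosen with earlier results of these data known. Genes named with values are those called in either fit (for the wider lists up to 3 per list and line, with 1 called A172 gene counted but not described), called other probes, and for each role 1 or 2 members fixed by name.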

Additional observations from a re-analysis of the deposited data

Results flagged for a closer look

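Each group of 4 U87-MG arrays was searched for an array far from the rest among the named probes, in 44 groups, and 7 such arrays were found, where chance alone gives about 1 in 20 groups. Set 3 holds 6 of the 7. In TFEB, control set 3 (6.08) and siLINC00152 set 3 (5.75) were each far above the other arrays of their group. In CTSL, control set 3 (2.45) and siLINC00152 set 3 (3.52) were far below theirs. LAMP1 was far lower in control set 3 (3.57), and the other probe of PSAP far higher in siLINC00152 set 3 (4.49). BECN1 was far higher in siLINC00152 set 4 (2.00). U87-MG control set 3 also had the lowest share of spots well above background, 35.7%, and siLINC00152 set 3 the lowest of its group, 40.4%. Without both arrays of set 3 the U87-MG difference was -0.19 for TFEB, 0.47 for CTSL, 0.013 for LAMP1 and -0.74 for the other probe of PSAP. Without control set 3 alone these differences were -0.042, 0.29, -0.026 and -0.57, in the same order, so that of LAMP1 changed sign.

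The effect of the knockdown on EVA1A differed between the lines in the fit with the replicate block. The A172 effect minus the U87-MG effect was -1.63 on the log2 scale for the brighter probe and -1.07 for the other. Both were called by limma in the test of the difference itself, with adjusted p of 0.114 and 0.143, and EVA1A was lower in 3 of 3 A172 pairs on both probes. Without the block neither was called (adjusted p 1). With the block the call of the brighter probe was lost at an FDR of 0.05. It was also lost without A172 set 2 or set 3, and without U87-MG set 1, 2 or 4. The brighter probe was lower in every U87-MG pair as well.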

How the results depend on the processing

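The median of the A172 members lay between -0.12 and -0.015 in every alternative. The replicate block called 924 probes in A172 and 918 in U87-MG, in place of 52 and 11, with 5 genes of the wider lists in each line and 1 member (EVA1A) that differed between the lines; among the values printed for members, it changed no call other than those named beside them. Normexp with quantile normalization called 1 A172 member (MAP1LC3C) and 41 U87-MG probes. Without a filter 34 A172 probes were called, with each line fitted alone 14 A172 probes and 0 members, and at an FDR of 0.05 27 and 7 probes in A172 and U87-MG. Counting any tested probe gave 1 wider-list gene in U87-MG (TP53INP1). The block with quantile normalization called 757 probes and 6 wider-list genes in A172, 769 and 6 in U87-MG, and 1 member between the lines. With the authors' values it called 679 and 6, 635 and 5 (LIPA among these and STX17 no longer), and 1. With normexp it called 389 and 4, 187 and 1, and 2 (EVA1A and SQSTM1). At an FDR of 0.05 it called 270 and 2, and 112 and 1. Leaving out arrays or sets, with or without the block, gave 4 to 339 probes, 0 to 3 members and 0 to 1 wider-list genes in A172, 2 to 738 probes, 0 to 1 members and 0 to 8 wider-list genes in U87-MG, 0 to 1 members between the lines, and a U87-MG member median of -0.020 to 0.14. The causes were not tested. Of 351 single values under the other alternatives without the block, 8 lost a call, 2 gained a call and 3 changed sign, none of them called; of 459 with arrays left out and no block, 14 lost a call and 22 changed sign. Of 176 under the block and its combinations, 52 gained and 1 lost a call and 3 changed sign, and of 151 with a set left out under the block, 27 gained a call and 7 changed sign. The comparison between the lines has no value when each line is fitted alone. Where a group keeps 2 arrays, they are assumed to vary like the others. CLN8 and MAP1LC3C were not well above background on any U87-MG array, and the part of the dimness of these arrays in that was not tested.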

Other observations

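Vacuolar ATPase subunits, which acidify the lysosome, were higher in U87-MG siLINC00152 arrays for 14 of 14 tested genes, with a median difference of 0.19 on the log2 scale beside 0.017 for all tested genes, and 8 of the 14 were higher in every pair, beside 20.5% of all tested genes. Under the 3 other scalings 12 or 13 of the 14 were higher. In A172 11 of 15 were higher, with a median of 0.089 beside 0.029, and 9 or 10 under the other scalings, and 4 of the 15 were higher in every pair, beside 22.3% of all tested genes. Limma called none of them in either line. The counts of this list were not repeated without U87-MG control set 3, the dimmest array. This list was singled out after its values were seen.

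A second WIPI2 probe, also singled out after its values were seen, had relative levels of -1.26, -1.23, 3.67 and -1.53 in U87-MG control sets 1 to 4 and -1.56, -1.65, -1.29 and -1.55 in siLINC00152 sets 1 to 4. Control set 3 stands far above the other arrays. The difference of -1.43 was not called (limma adjusted p 0.9999, with the replicate block 0.366), and the brighter WIPI2 probe showed no such array.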
